A study of Mus musculus with 10 samples.

Results

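Insulin and insulin-like growth factor (IGF) signalling was followed through 10 genes, chosen by name for their place in the pathway, in RNA sequencing of pancreatic islets from mice that lacked FIT2 in β cells. The 10 genes are the receptors Insr, Igf1r, Insrr and Igf2r, the ligand Igf2, the receptor substrates Irs1 and Irs2, the kinases Akt1 and Akt2, and the transcription factor Foxo1, out of 47340 genes in the table. All 10 were expressed above the minimum for testing, a mean of at least 1 FPKM in a group, which 13065 genes reached. FPKM are fragments per kilobase of transcript scaled to the mapped fragments of the library, so that levels of different genes can be set side by side. Comparisons between mice also depend on how the libraries are scaled, as given below.

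FIT2, encoded by Fitm2, is a protein of the endoplasmic reticulum needed for lipid droplets to form. The KO group, βFIT2KO, held 5 male mice, 12 wk old and fed chow, with both Fitm2 alleles floxed and Cre driven by the rat insulin promoter from the B6.Cg-Tg(Ins2-cre)25Mgn/J transgene. The FL group held 5 mice of the same age, sex and diet with floxed alleles and no Cre. Their titles read Flox, although their genotype field reads wild type. Islets of both groups were cultured overnight before RNA was taken, with 1 library per mouse. No islets from mice with the Cre transgene alone were among the libraries, so effects of the transgene and of the deletion cannot be told apart.

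Insulin and the IGFs bind receptor tyrosine kinases of 1 family, encoded by Insr, Igf1r and the orphan member Insrr. The activated receptors phosphorylate the scaffold proteins IRS1 and IRS2, which recruit phosphoinositide kinase, and the lipid it makes brings AKT kinases to the membrane. AKT phosphorylates FoxO factors, among them FOXO1, and keeps them out of the nucleus. In β cells this pathway is known for its part in cell mass, survival and the response to insulin demand, with IRS2 as a main substrate. The RNA levels described here do not measure the phosphorylation on which the pathway runs.

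The knocked-out gene and the makeup of the samples were checked first. Fitm2 was at 15.5 to 37.1 FPKM in FL and 4.30 to 9.13 FPKM in KO, with no overlap, and the table gives 1 value per gene, so the deleted part cannot be read apart from the rest. Relative depth, estimated from the spacing of the lowest values, ranged from 1 to 2.41 in FL and from 1.51 to 2.05 in KO, and intervals that need read counts were not computed. FL mice 1 and 2 stood apart by Gm42418, a transcript from a ribosomal RNA repeat, with values up to 4594 FPKM against 379 to 1050 FPKM elsewhere. The islet identity of the libraries rested on hormone and transcription factor genes other than Ins1, Ins2, Iapp and Gcg, which are listed at 0 in all 10 libraries, as failed estimates can be. Of the β cell markers, 5 of 6 tested were lower in KO, and the sum over the list was 1996 to 2518 FPKM in FL and 1333 to 1915 FPKM in KO. Markers of fibroblasts and pericytes were higher in 6 of 6 (sum 18.3 to 26.9 FPKM in FL, 34.9 to 43.8 FPKM in KO), those of endothelial cells in 5 of 7 (183 to 210 FPKM in FL, 225 to 272 FPKM in KO) and those of macrophages and leukocytes in 2 of 5 (49.2 to 68.2 FPKM in FL, 90.4 to 99.6 FPKM in KO). In the other lists, 1 of 3 α cell markers, 1 of 4 δ cell markers and 1 of 4 ductal markers were lower, and 1 of 4 ductal markers was higher. The 8 acinar markers tested gave 0 calls by limma, 0 at an unadjusted p under 0.05 and 0 by an exact Wilcoxon rank test, with sums of 3770 to 10154 FPKM in FL and 2534 to 18248 FPKM in KO, and the 1 PP cell marker gave 0 by all of these. In whole islets, fewer cells of a type and less RNA per cell cannot be told apart, and the part of these shifts in the results that follow was not tested.

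Of the 10 genes, 4 were lower in KO (Insrr, Igf2, Irs1 and Foxo1), 2 were higher (Igf2r and Akt1) and 4 did not pass (Insr, Igf1r, Irs2 and Akt2) at an adjusted p of 0.05 (limma). Over all genes tested the background was 16.5% lower and 9.05% higher. The median log2 fold change was −0.21 over the 10 genes and −0.06 over all genes tested, and on the log2(FPKM + 1) scale used for the fold changes a difference of at least 1.5-fold was seen in 1 of the 10, Insrr. FL and KO libraries did not overlap in 6 of the 10 genes, the same 6 that passed, as against 19.1% of all genes tested. That scale understates the change of low genes such as Igf2 and Irs1, and by the ratio of mean FPKM, 0.520, Igf2 also passed 1.5-fold. How all called genes divide depends on the scaling, with 2150 lower and 1183 higher as deposited, 1530 and 1614 after median-ratio scaling, 1455 and 1675 after upper-quartile scaling, 1708 and 1494 after quantile normalization, and 1530 and 1389 as TPM, while 4 of the 10 genes stayed lower and 2 higher under each of these.

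**Figure D1:**
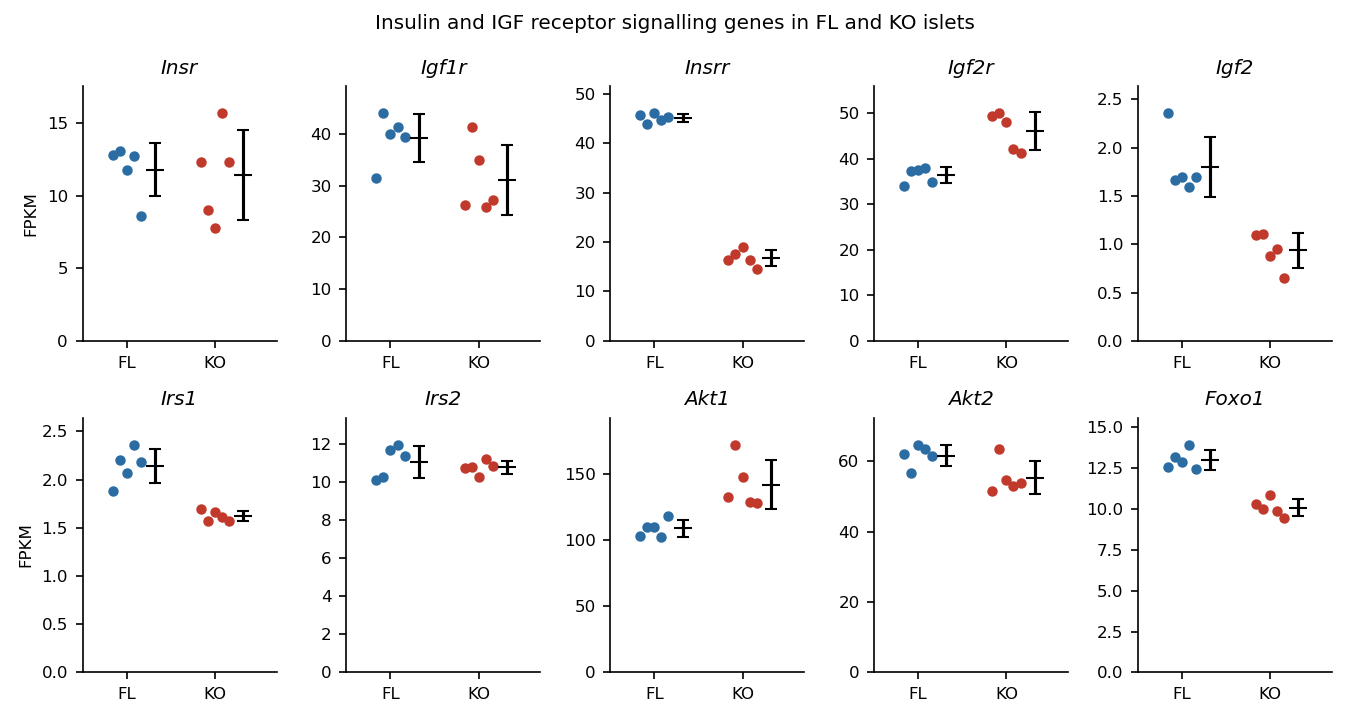
FPKM of the 10 genes in the islets of 5 FL mice (blue) and 5 KO mice (red), 1 point per library, with the mean and SD in black. Insrr, Igf2, Irs1 and Foxo1 lie lower in KO and Igf2r and Akt1 higher, each with no overlap, while the points of Insr, Igf1r, Irs2 and Akt2 overlap.

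Among the receptors Insrr stood out. Insrr encodes the insulin receptor-related receptor, which binds neither insulin nor the IGFs and is known as a sensor of alkaline pH. It was at 45.7, 43.9, 46.0, 44.6 and 45.2 FPKM in FL mice 1 to 5 and at 16.3, 17.5, 18.9, 16.4 and 14.6 FPKM in KO mice 1 to 5. The FL values lay within a narrow band (SD 0.870 FPKM, n = 5), and the highest KO value was far below the lowest FL value. The level in KO was 0.371 of that in FL (45.1 ± 0.87 against 16.7 ± 1.59 FPKM, n = 5, SD), a log2 fold change of −1.38 (SE 0.06, limma adjusted p = 7.73e-08). By log2 fold change this was the 39th lowest of 13065 genes tested. The study picked Insrr and Igf1r out of these same libraries, so neither is an independent choice.

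Insrr lies on chromosome 3, from 87796951 to 87816101 on the plus strand of GRCm38 (GENCODE M21). Pear1, a platelet receptor gene annotated on the minus strand across it, was at 1.77 ± 0.264 FPKM in FL against 2.13 ± 0.452 FPKM in KO (n = 5, SD, limma adjusted p = 0.293). The next gene downstream, Sh2d2a, was at or under 0.033 FPKM in every library.

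Insr (chromosome 8, 3122061 to 3279617, minus strand), the insulin receptor gene, did not pass. Its FPKM were 12.8, 13.1, 11.7, 12.7 and 8.63 in FL mice 1 to 5 and 12.3, 9.01, 7.77, 15.7 and 12.4 in KO mice 1 to 5. The KO mice spread on both sides of the FL mice, with the lowest and the highest of the 10 values both in KO. The log2 fold change was −0.06 with a 95% interval from −0.44 to 0.31 (limma adjusted p = 0.815), so that a change by up to 0.738-fold or 1.24-fold on the FPKM + 1 scale lies within it. Without KO mouse 2 or KO mouse 3 the sign turned (log2 fold change 0.00446 and 0.0523).

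Igf1r (chromosome 7, 67952827 to 68233668, plus strand), the gene of the receptor for IGF1 and IGF2, was at 31.5, 44.0, 39.9, 41.3 and 39.4 FPKM in FL mice 1 to 5 and at 26.3, 41.3, 34.9, 26.0 and 27.3 FPKM in KO mice 1 to 5. In KO, 3 values lay under every FL value, and those of mice 2 and 3 lay among those of FL. Its log2 fold change of −0.34 had a 95% interval from −0.63 to −0.04 and did not pass (limma adjusted p = 0.0884, and an exact two-sided permutation test gave p = 0.0714). It passed without FL mouse 1 (log2 fold change −0.41, limma adjusted p = 0.0464) or without KO mouse 2 (−0.44, adjusted p = 0.0167), so single libraries decide this call. Under the other scalings Igf1r did not pass, with log2 fold changes from −0.30 to −0.27 and limma adjusted p from 0.107 to 0.144. Without a filter Igf1r did not pass either (limma adjusted p = 0.163).

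Insr and Igf1r ran in opposite directions among the KO mice. KO mice 2 and 3, which had the lowest Insr, had the highest Igf1r, the highest Insrr and the highest Akt1 of their group. The same mice had the highest summed β cell markers in KO (1890 and 1915 FPKM, against 1333 to 1516 FPKM in the others) and the lowest summed acinar markers (2534 and 2674 FPKM, against 4425 to 18248 FPKM). This grouping was seen in the values and was not tested.

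As shares of the summed FPKM of the 3 receptor tyrosine kinase genes, Insrr made up 47.0 ± 2.85% in FL and 28.3 ± 1.97% in KO (n = 5, SD), with 43.5% the lowest FL share and 30.7% the highest KO share. Igf1r made up 40.7 ± 3.36% in FL and 52.1 ± 6.58% in KO, and Insr 12.3 ± 1.85% and 19.6 ± 6.36% (n = 5, SD). The sum itself was 96.1 ± 4.41 FPKM in FL against 59.3 ± 5.56 FPKM in KO (n = 5, SD), so the larger shares of Igf1r and Insr stand in a smaller total. Within libraries, the ratio of Insrr to Insr ranged from 3.36 to 5.24 in FL and from 1.04 to 2.43 in KO (geometric means 3.87 and 1.505, exact two-sided permutation test p = 0.00794, the smallest that 5 mice against 5 allow, and 0.00992 after adjustment over the 5 ratios examined). The ratio of Igf1r to Insr had geometric means of 3.34 in FL and 2.76 in KO and overlapped (exact permutation p = 0.397).

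**Figure D2:**
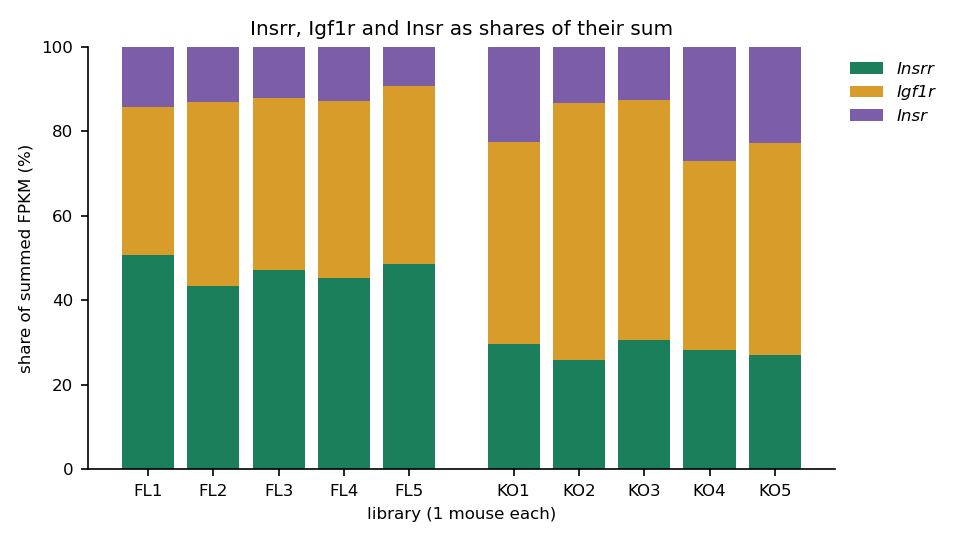
Shares of Insrr (green), Igf1r (orange) and Insr (purple) in the summed FPKM of the 3 genes, 1 bar per library, for FL mice 1 to 5 and KO mice 1 to 5. The green part covers 43.5 to 50.8% in FL and 25.8 to 30.7% in KO.

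Igf2r and Igf2 moved in opposite directions. Igf2r (chromosome 17, 12682406 to 12769664, minus strand) encodes the cation-independent mannose 6-phosphate receptor, which carries lysosomal enzymes and removes IGF2 by uptake and degradation without a kinase of its own. It was at 34.1, 37.3, 37.5, 38.1 and 35.0 FPKM in FL mice 1 to 5 and at 49.5, 50.02, 48.2, 42.2 and 41.3 FPKM in KO mice 1 to 5. Every KO value was above every FL value. In KO it was up by 0.33 on the log2 scale (SE 0.06, limma adjusted p = 0.00382), which is 1.27 times the FL mean. The summed markers of fibroblasts and pericytes, endothelial cells, and macrophages and leukocytes, given above with the counts that passed, also lay higher in every KO library than in any FL library, and their part in this difference was not tested. Airn, a noncoding transcript antisense to Igf2r, was at 6.82 FPKM in FL against 6.88 FPKM in KO (limma adjusted p = 0.950).

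Promoter windows were read from RefSeq (GRCm38.p6), from 250 bases before to 50 bases after each start site, and matched 8 of the 10 genes with 15 windows. Insr and Insrr had no entry. Each window was searched on both strands for the FoxO core TGTTTA, the GC box GGGCGG and the STAT-type letters TTCNNNGAA, counting overlapping matches, which 13.4%, 35.7% and 8.30% of all 32851 windows hold. These letters were chosen because FoxO is the end of this pathway, STAT factors act on Igf1 and Socs2, and GC boxes are common at housekeeping starts, and a match describes the sequence and not a bound site. Windows are printed for the 4 genes that passed and had 1 or 2 starts, read 5′ to 3′ along the gene's strand with matches in capitals. The window of Igf2r holds 3 GC boxes before the start:
Igf2r, chr17:12769657-12769956, minus strand: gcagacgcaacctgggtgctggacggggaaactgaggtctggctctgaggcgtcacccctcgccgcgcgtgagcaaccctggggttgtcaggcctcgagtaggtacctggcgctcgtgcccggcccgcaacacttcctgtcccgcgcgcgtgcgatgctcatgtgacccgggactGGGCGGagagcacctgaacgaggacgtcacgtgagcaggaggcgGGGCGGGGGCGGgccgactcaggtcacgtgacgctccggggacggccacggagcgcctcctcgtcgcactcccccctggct

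Igf2, which encodes the ligand IGF2 and is expressed mainly in fetal life, was near the lower limit for testing. With means of 1.80 FPKM in FL and 0.936 FPKM in KO, Igf2 reached the minimum of 1 FPKM only through FL, the group where it is higher. In the fit without a filter it was also lower (log2 fold change −0.53, limma adjusted p = 0.0056). Its FPKM were 2.36, 1.66, 1.69, 1.60 and 1.696 in FL mice 1 to 5 and 1.09, 1.11, 0.882, 0.948 and 0.652 in KO mice 1 to 5. FL mouse 1 was the highest by some distance and all KO mice lay under all FL mice. On the log2 scale this was −0.53 (SE 0.10, limma adjusted p = 0.00386), and the KO mean was 0.520 of the FL mean. With a pseudocount of 0.01 instead of 1 it was −0.95. Igf2 (chromosome 7, 142650766 to 142666816, minus strand) overlaps the antisense gene Igf2os and, on its own strand, Gm49394, which was not analysed here. H19, the imprinted noncoding RNA beside it, was at 0.024 FPKM in FL against 0.010 FPKM in KO. Of the protein-coding neighbours, Ins2 is listed at 0 and Mrpl23 was at 14.4 ± 1.84 FPKM in FL against 13.4 ± 2.71 FPKM in KO (n = 5, SD, limma adjusted p = 0.582).

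Igf2r and Igf2 are both imprinted genes in the mouse, and their ratio within a library went from 14.5 to 23.8 in FL and from 44.5 to 63.2 in KO. The geometric means were 20.4 and 50.1, a fold of 2.45 (exact two-sided permutation p = 0.00794, 0.00992 adjusted over the 5 ratios). Both genes were already without overlap and in opposite directions, so their ratio had to separate. Its p was thus fixed in advance and adds no support beyond the calls of the single genes. The 4 windows of Igf2 hold 3 GC boxes in all and neither of the other motifs.

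Of the receptor substrates Irs1 was lower and Irs2 did not pass. Irs1 (chromosome 1, 82233101 to 82291416, minus strand) was at 1.88, 2.204, 2.06, 2.36 and 2.18 FPKM in FL mice 1 to 5 and at 1.69, 1.57, 1.66, 1.61 and 1.57 FPKM in KO mice 1 to 5. The KO mice lay close together and just under the lowest FL mouse. On the log2 scale the difference was −0.26 (SE 0.07, limma adjusted p = 0.0177), and the KO mean was 0.758 of the FL mean. Irs1 did not pass when the replicate number was added to the model as a block (limma adjusted p = 0.0774). From the spacing of low values these levels rest on about 396 to 1104 reads per FL library and 530 to 678 reads per KO library.

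Irs2 (chromosome 8, 10984681 to 11008458, minus strand) was at 10.1, 10.2, 11.6, 11.9 and 11.3 FPKM in FL mice 1 to 5 and at 10.7, 10.8, 10.3, 11.2 and 10.8 FPKM in KO mice 1 to 5. All KO values lay inside the FL range. Its log2 fold change was −0.03 with a 95% interval from −0.15 to 0.09 (limma adjusted p = 0.690), the narrowest among the genes that did not pass, and its sign turned under each of the other scalings. Irs2 was the more abundant substrate in every library, and its ratio to Irs1 ranged from 4.64 to 5.64 in FL and from 6.16 to 6.93 in KO (geometric means 5.17 and 6.63, exact two-sided permutation p = 0.00794, 0.00992 adjusted over the 5 ratios). The sum of both was 13.2 ± 0.962 FPKM in FL against 12.4 ± 0.307 FPKM in KO (n = 5, SD), since most of it is Irs2. The window of Irs1 holds 2 GC boxes, more than 200 bases before the start:
Irs1, chr1:82291390-82291689, minus strand: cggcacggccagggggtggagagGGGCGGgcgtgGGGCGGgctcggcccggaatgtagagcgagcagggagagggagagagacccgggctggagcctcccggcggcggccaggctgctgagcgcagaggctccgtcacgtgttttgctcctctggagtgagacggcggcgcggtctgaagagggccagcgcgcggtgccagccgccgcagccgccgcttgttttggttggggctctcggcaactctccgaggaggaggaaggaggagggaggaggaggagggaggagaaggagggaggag

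The AKT genes, the most abundant of the 10, moved apart. Akt1 (chromosome 12, 112653821 to 112674884, minus strand) was at 103, 110, 111, 102 and 119 FPKM in FL mice 1 to 5 and at 133, 172, 148, 129 and 129 FPKM in KO mice 1 to 5. Each KO mouse was above each FL mouse, with KO mouse 2 the highest. The log2 fold change was 0.37 (SE 0.08, limma adjusted p = 0.00812), and KO was at 1.30 times the FL mean.

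Akt2 (chromosome 7, 27591552 to 27640826, plus strand), the form best known for insulin-stimulated glucose uptake, was at 61.9, 56.6, 64.6, 63.3 and 61.4 FPKM in FL mice 1 to 5 and at 51.6, 63.5, 54.7, 52.9 and 53.8 FPKM in KO mice 1 to 5. Apart from KO mouse 2, the KO values lay under all FL values. A log2 fold change of −0.15 (95% interval −0.29 to −0.02) did not pass (limma adjusted p = 0.0914), and it passed without KO mouse 2 (−0.20, adjusted p = 0.0117). The exact two-sided permutation test on this gene alone gave p = 0.0476. Under the other scalings Akt2 did not pass, with log2 fold changes from −0.11 to −0.089 and limma adjusted p from 0.212 to 0.264.

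Taken within each library, the ratio of Akt1 to Akt2 ranged from 1.62 to 1.94 in FL and from 2.39 to 2.71 in KO, with geometric means of 1.77 and 2.56 (exact two-sided permutation p = 0.00794, 0.00992 adjusted over the 5 ratios). KO mouse 2, the highest of its group for both genes, also had the highest ratio. Of the 4 windows of Akt2, which are not printed, 1 holds a FoxO match and another holds a GC box and a STAT-type match. RefSeq gives Akt1 a pair of start sites. The window of the upstream start holds the single FoxO match among the printed windows, and that of the downstream start holds 5 GC boxes, some of them overlapping:
Akt1 upstream start, chr12:112674835-112675134, minus strand: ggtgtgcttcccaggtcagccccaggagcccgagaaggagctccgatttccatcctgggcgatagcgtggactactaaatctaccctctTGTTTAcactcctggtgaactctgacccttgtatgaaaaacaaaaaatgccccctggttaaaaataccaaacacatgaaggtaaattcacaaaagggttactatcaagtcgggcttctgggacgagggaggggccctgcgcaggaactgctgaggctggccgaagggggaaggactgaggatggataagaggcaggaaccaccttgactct
Akt1 downstream start, chr12:112674227-112674526, minus strand: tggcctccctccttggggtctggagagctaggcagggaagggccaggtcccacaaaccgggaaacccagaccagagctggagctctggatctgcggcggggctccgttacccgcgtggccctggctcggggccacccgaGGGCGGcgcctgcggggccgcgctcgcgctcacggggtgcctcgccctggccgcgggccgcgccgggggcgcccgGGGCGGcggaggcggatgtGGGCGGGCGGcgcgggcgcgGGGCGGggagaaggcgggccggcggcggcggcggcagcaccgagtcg

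**Figure D3:**
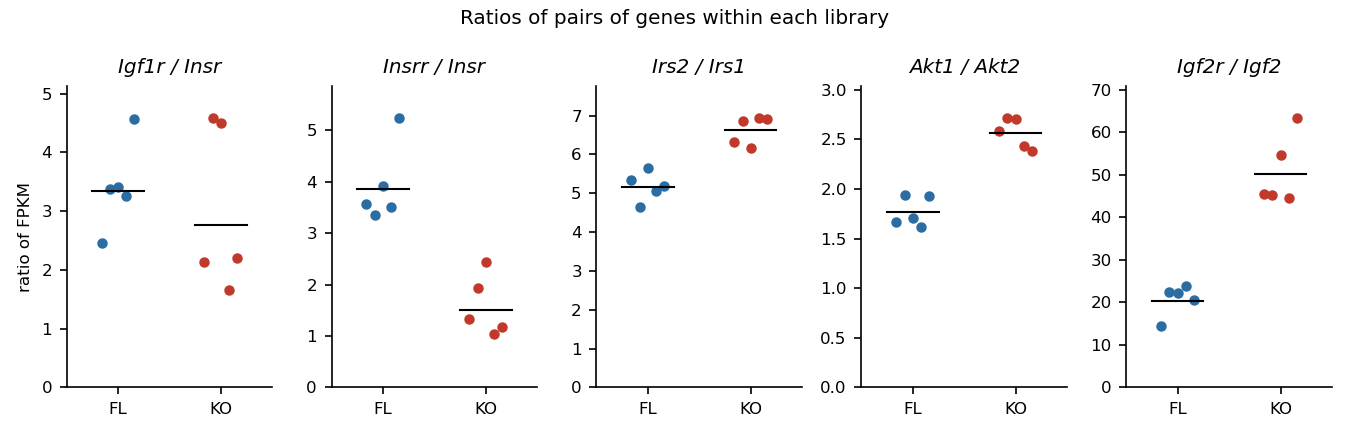
Ratios of FPKM between pairs of the genes within each library, for FL (blue) and KO (red), 1 point per mouse, with the geometric mean as a line. The groups overlap for Igf1r to Insr and are apart for Insrr to Insr (lower in KO) and for Irs2 to Irs1, Akt1 to Akt2 and Igf2r to Igf2 (higher in KO).

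Foxo1 (chromosome 3, 52268336 to 52353221, plus strand), which encodes a FoxO factor that AKT holds in the cytoplasm, was at 12.5, 13.2, 12.9, 13.9 and 12.4 FPKM in FL mice 1 to 5 and at 10.3, 9.97, 10.8, 9.84 and 9.43 FPKM in KO mice 1 to 5. The groups were well apart with small spread in each. This gave a log2 fold change of −0.34 (SE 0.05, limma adjusted p = 0.000642), and the KO mean was 0.775 of the FL mean. The window at its start, on chromosome 3, holds 5 GC boxes, of which 2 lie before the start:
Foxo1, chr3:52268087-52268386, plus strand: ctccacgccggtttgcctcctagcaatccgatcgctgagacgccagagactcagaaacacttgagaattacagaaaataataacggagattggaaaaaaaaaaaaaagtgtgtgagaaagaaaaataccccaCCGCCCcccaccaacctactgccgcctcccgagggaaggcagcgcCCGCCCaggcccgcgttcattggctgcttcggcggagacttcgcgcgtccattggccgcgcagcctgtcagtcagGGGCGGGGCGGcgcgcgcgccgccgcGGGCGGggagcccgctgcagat

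**Figure D4:**
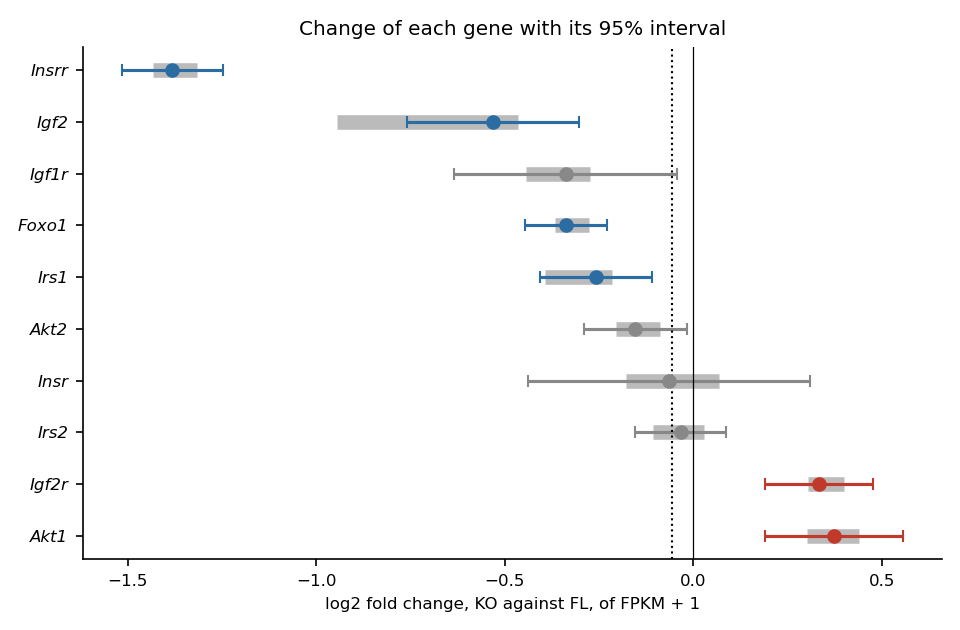
Log2 fold change, KO against FL, of FPKM + 1 for each of the 10 genes (point) with the 95% interval of limma (bar), blue for lower, red for higher and grey for not passed. The wide grey band spans all alternative settings and the dotted line is the median of all genes tested at −0.06; the band of Insrr runs from −1.43 to −1.32 and those of Insr and Irs2 cross 0.

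By level, Akt1 and Akt2 stood first and second in both groups, and Irs1 and Igf2 stood last. In FL the order between was Insrr, Igf1r, Igf2r, Foxo1, Insr and Irs2. In KO it was Igf2r, Igf1r, Insrr, Insr, Irs2 and Foxo1, so that Insrr went from above Igf2r to below Igf1r. Neighbours in the order were not always apart. In FL, Insrr was above Igf1r in 4 of 5 libraries, Igf1r above Igf2r in 4, Foxo1 above Insr in 4, Insr above Irs2 in 4 and Irs1 above Igf2 in 4. In KO, Insr was above Irs2 in 3 of 5 libraries and Irs2 above Foxo1 in 4. The remaining neighbours kept their order in all 5 libraries of their group.

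The other genes of the pathway, 100 in 10 lists by role, gave 83 that were tested, of which 17 were lower, 9 higher and 57 did not pass. Their median log2 fold change was −0.06, as it was over all genes tested, and the share lower was 20.5% beside 16.5% of all genes tested and the share higher 10.8% beside 9.05%.

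Of the ligands and IGF-binding proteins, 3 of 6 tested were higher and the other 3 did not pass. Igf1, the hormone of the IGF1 receptor, went from 0.966 ± 0.293 FPKM in FL to 3.21 ± 0.668 FPKM in KO (n = 5, SD), with a log2 fold change of 1.10 (SE 0.14, limma adjusted p = 0.000282). Igf1 thus reached the minimum of 1 FPKM only through KO, the group where it is higher. In the fit without a filter Igf1 was also higher and passed. Igfbp5, which encodes a secreted IGF-binding protein, went from 46.6 ± 4.62 to 174 ± 30.4 FPKM (n = 5, SD), a log2 fold change of 1.86 (SE 0.11), and Igfals, the acid-labile subunit of the circulating IGF complex, from 24.4 ± 7.29 to 49.8 ± 14.6 FPKM (n = 5, SD), a log2 fold change of 1.00 (SE 0.23, limma adjusted p = 0.00968). None of the 3 overlapped between groups. Igfbp3, Igfbp4 and Igfbp7 did not pass, with log2 fold changes of 0.36, −0.42 and −0.03. Ins1 and Ins2 are listed at 0. Fibroblasts and macrophages are known sources of Igf1, and the sums of their markers given above were higher in every KO library than in any FL library. Of the macrophage and leukocyte markers, Cd68 (22.8 FPKM in FL, 37.1 FPKM in KO) and Lyz2 (25.7 and 48.3 FPKM) passed. Adgre1, Csf1r and Cd14 did not (limma adjusted p = 0.101, 0.366 and 0.332). The part of these cells in the difference of Igf1 was not tested.

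Among adaptors and regulators close to the receptors, 4 of 14 tested were lower and 2 were higher. Ptprf, the receptor tyrosine phosphatase LAR, was at 144 FPKM in FL against 101 FPKM in KO (log2 fold change −0.52), the adaptor Shc1 at 93.1 and 68.6 FPKM (−0.44), Ptpn1, the phosphatase PTP1B that acts on the insulin receptor, at 32.9 and 26.1 FPKM (−0.32), and the RAS exchange factor Sos2 at 38.2 and 31.3 FPKM (−0.28). Socs2, an inhibitor induced by growth hormone and prolactin, was higher at 16.6 ± 0.773 FPKM in FL against 38.8 ± 2.62 FPKM in KO (n = 5, SD), a log2 fold change of 1.18 (SE 0.05, limma adjusted p = 1.3e-07). The adaptor Grb10, an imprinted inhibitor of both receptors, was at 22.0 and 26.2 FPKM (0.24). The substrate genes Irs3 and Irs4 were under 0.2 FPKM in the mean of each group.

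The 7 tested phosphoinositide 3-kinase subunits gave 0 calls by limma and 0 by the exact Wilcoxon rank test, with 1 lower at an unadjusted p under 0.05, Pik3c2a (30.3 FPKM in FL against 25.2 FPKM in KO, adjusted p = 0.0582). The catalytic Pik3ca was at 29.1 and 28.6 FPKM and the regulatory Pik3r1 at 15.8 and 14.6 FPKM. Of the 6 phosphatases, 2 were lower, Phlpp1, which acts on AKT (6.90 and 4.94 FPKM, log2 fold change −0.41), and Inppl1, the lipid phosphatase SHIP2 (20.8 and 17.0 FPKM, −0.27).

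At the level of AKT and its substrates, 1 of 9 was lower and 1 higher. Pdpk1, the kinase PDK1 that activates AKT, was at 28.9 and 24.2 FPKM (log2 fold change −0.25, limma adjusted p = 0.0301). Tbc1d4, the AKT substrate AS160, rose from 3.30 ± 0.320 to 6.28 ± 0.835 FPKM (n = 5, SD), a log2 fold change of 0.76 (SE 0.09, limma adjusted p = 0.000155). Of the 15 genes of the TOR complexes and their outputs, 2 were lower, Tsc2 (−0.28) and Rictor (−0.23), and 3 were higher, Rps6kb1, the S6 kinase (0.41), Mapkap1 (0.26) and Deptor (0.19). Rictor and Mapkap1, subunits of TOR complex 2, thus stand on opposite sides. Of the 9 RAS and ERK genes, 2 were lower, Map2k1 (−0.36) and Hras (−0.29), and the other 7 had log2 fold changes below 0 without passing.

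Foxo6, the FoxO gene best known from the brain, was lower, at 14.5 ± 1.80 FPKM in FL against 8.95 ± 0.883 FPKM in KO (n = 5, SD), a log2 fold change of −0.64 (SE 0.09, limma adjusted p = 0.000502). Foxo3 was at 17.6 and 18.2 FPKM and Foxo4 at 9.30 and 9.93 FPKM, and neither passed. Foxo1 made up 23.9 ± 1.71% of the summed FPKM of the 4 FoxO genes in FL and 21.4 ± 1.06% in KO (n = 5, SD).

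Of 12 tested genes known as FoxO targets, 5 were lower and the other 7 did not pass. Bnip3, a mitophagy receptor also induced by low oxygen, was at 136 ± 17.3 FPKM in FL against 83.4 ± 28.6 FPKM in KO (n = 5, SD), a log2 fold change of −0.75 (SE 0.18, limma adjusted p = 0.0128), with groups that overlapped. Cdkn1b, the cell cycle inhibitor p27, was at 44.3 and 30.9 FPKM (−0.52), the Krüppel-like factor Klf15 at 5.19 and 3.35 FPKM (−0.51), the repressor Bcl6 at 3.26 and 2.28 FPKM (−0.38) and the stress-induced Sesn1 at 15.8 and 12.9 FPKM (−0.28). The gluconeogenic targets Pck1 and G6pc were under 0.01 FPKM in the mean of each group. The tested genes for IGF2 mRNA binding and the IGF2R locus, Igf2bp2 and Airn, gave 0 calls by limma, 0 at an unadjusted p under 0.05 and 0 by the Wilcoxon test.

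Of these 26 calls, 6 did not hold when single libraries were left out. Deptor lost its call in 7 of those 10 fits and Hras in 6 (adjusted p up to 0.0898 and 0.0756 from limma), Rictor in 5, Pdpk1 in 4, and Grb10 and Sesn1 in 1 each, without KO mouse 4 and KO mouse 1. Bnip3, Ptpn1, Sesn1, Deptor and Hras also lost theirs without FL mice 1 and 2 together, with adjusted p from 0.0564 to 0.134. Hras did not pass under any of the 4 other scalings, Rictor under 2, Sesn1 under 3 and Ptpn1 under 2, and Pdpk1 not as TPM.

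**Figure D5:**
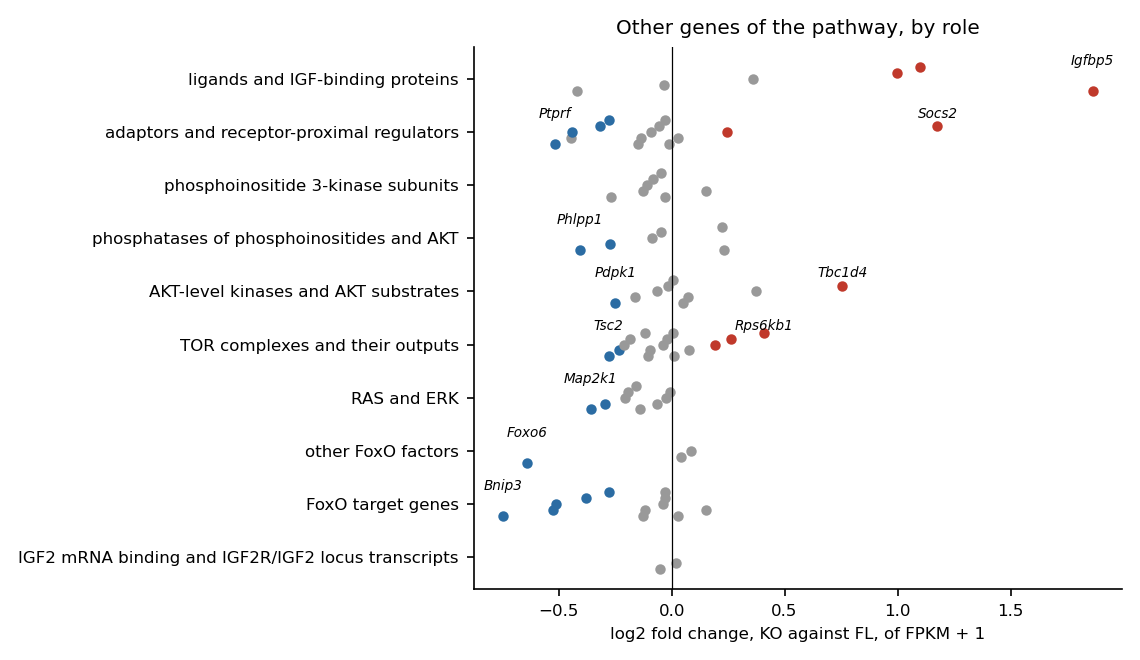
Log2 fold change, KO against FL, of FPKM + 1 for the 83 tested other genes of the pathway, in rows by role, with lower genes in blue, higher genes in red and genes that did not pass in grey. The lowest and highest called gene of each row is named; Igfbp5 lies farthest right at 1.86 and Bnip3 farthest left at −0.75.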

How the data were processed

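Islet RNA of 5 FL and 5 KO mice was sequenced by the authors as stranded poly(A) libraries (single-end reads of 75 nt), and the submitters' processing notes name STAR 2.5.2a, Cuffnorm 2.2.1 and mm10/GRCm38 without giving their roles. The annotation is not given in the sources used here. The deposited table holds FPKM, normalized by the authors, for 47340 genes, of which 22548 are at 0 in all libraries. FPKM do not keep read counts, so the depth per library was only estimated, from the spacing of low values in long genes with 1 transcript, a choice made after the values were seen. Positions come from GENCODE M21 (46841 identifiers matched without their version; Igf2r carries another version there).

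Log2(FPKM + 1) was compared between groups with limma 3.58.1 in R 4.3.3 (eBayes with a trend, no covariate) for the 13065 genes whose mean reached 1 FPKM in either group, the minimum the study used, with Benjamini-Hochberg adjustment over all of them and 0.05 as the threshold. Ratios within a library and single genes were compared with exact two-sided permutation tests. In simulated data 179 of 200 genes with a log2 change of 1 were called, all with the right sign, as were 12 of 12865 unchanged genes. Figures were drawn with matplotlib 3.10.9 in Python 3.11.15.

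The 10 genes, the pathway and marker lists and the motifs were chosen with earlier results of these data known. Named besides the 10 were the called genes of each pathway list, genes needed to say what was at 0, a few uncalled genes chosen after their values were seen (Pik3ca, Pik3r1, Pik3c2a, Foxo3, Foxo4, Igfbp3, Igfbp4 and Igfbp7), and neighbours of Insrr and Igf2. Some genes that the rule would name are not reported here. The alternatives were other pseudocounts, filters, scalings, limma settings and thresholds, a block for the replicate number, an exact Wilcoxon rank test, and each library left out in turn. FL mice 1 and 2 were left out together as an alternative added after seeing the data. Each library came from a separate mouse, and p-values measure the spread between these mice.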

Additional observations from a re-analysis of the deposited data

Results flagged for a closer look

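In 2 of 20 groups (10 genes in FL and in KO) 1 library stood apart from the other 4, where chance gives about 1. Igf2 was highest in FL mouse 1, at 2.36 FPKM, and its gap to the next mouse was 0.870 of the group's range, above Dixon's critical value for 5 mice. Akt2 was highest in KO mouse 2, at 63.5 FPKM, with a gap of 0.738 of the range. FL mouse 1 is among the libraries with the most Gm42418. Without FL mouse 1 the log2 fold change of Igf2 was −0.46 (limma adjusted p = 0.00804), and without KO mouse 2 that of Akt2 was −0.20 (limma adjusted p = 0.0117), where it was −0.15 with all mice (adjusted p = 0.0914).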

How the results depend on the processing

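Insrr kept its direction and its call in all 26 alternatives, and Igf2r, Akt1 and Foxo1 in all but the requirement of a 1.5-fold change on the FPKM + 1 scale. With that requirement 290 genes were lower and 349 higher, 1 of the 10 genes was lower (Insrr) and 0 higher, 2 of the other pathway genes were lower and 5 higher, and Igf2r (0.33), Igf2 (−0.53), Irs1 (−0.26), Akt1 (0.37) and Foxo1 (−0.34) were not called. At an adjusted p of 0.01, 1044 genes were lower and 622 higher, 9 pathway genes were lower, and Irs1 (−0.26) was not called. With a minimum of 5 FPKM, 2 of the 10 genes were lower, since Igf2 and Irs1 were not tested there. Irs2 turned positive after median-ratio (0.0202), upper-quartile (0.0279) and quantile (0.0184) scaling and as TPM (0.0065). Insr turned positive with sample weights (0.0671) and without FL mice 1 and 2 (0.0271). Igf1r and Akt2 did not pass under any of the other scalings. Sample weights gave calls for Igf1r (−0.44, adjusted p = 0.0136) and Akt2 (−0.20, adjusted p = 0.017). The cause was not tested.

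With each library left out in turn, 1589 to 2367 genes were lower and 936 to 1130 higher, 4 to 6 of the 10 genes lower and 2 higher, and 14 to 21 pathway genes lower and 7 to 10 higher. The log2 fold change of Insr ranged from −0.18 to 0.0523, of Igf1r from −0.44 to −0.28 and of Akt2 from −0.20 to −0.13.

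Same-numbered FL and KO mice did not deviate together (residual correlations from −0.10 to 0.0030), so the numbers were not taken as pairs. With the replicate number as a block, 1494 genes were lower and 874 higher, Igf1r was called (−0.34, adjusted p = 0.0446) and Irs1 was not (−0.26, adjusted p = 0.0774). The exact paired sign-flip test cannot go under p = 0.0625, and the log2 differences of Insrr/Insr (−1.36), Irs2/Irs1 (0.36), Akt1/Akt2 (0.53) and Igf2r/Igf2 (1.30) had an adjusted p of 0.0781. Low depth weighs most on Igf2 and Irs1, the lowest of the 10 genes.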

Other observations

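Across the 10 genes, KO mouse 2 held the highest value of its group for 5 and KO mouse 5 the lowest for 5, while in FL mouse 4 held the highest for 4 and mouse 1 the lowest for 4. KO mouse 5 had the highest summed acinar markers of all libraries, at 18248 FPKM, and KO mouse 2 the lowest, at 2534 FPKM.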
